A study of Mus musculus with 14 samples.

Results

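The genes described here encode 10 enzymes of glycolysis (*Gpi1*, *Pfkl*, *Aldoa*, *Tpi1*, *Gapdh*, *Pgk1*, *Pgam1*, *Eno1*, *Pkm* and *Ldha*), a group chosen by name because several of them have processed pseudogenes, which are intronless copies of an mRNA inserted elsewhere in the genome. All 10 were found in both RNA-seq libraries, which list 20515 genes by symbol. For each gene the exon FPKM was compared with the intron FPKM (fragments per kilobase, scaled to the mapped reads, over the exons or over the introns), since a processed pseudogene carries exon sequence but no intron sequence.

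The study placed the *Tbrg4* gene under the regulatory elements of its neighbor *Wap*, a milk protein gene, to ask how a super-enhancer (SE) works with its promoter. The series holds 14 samples, of which 2 are total RNA-seq libraries and 12 are ChIP-seq samples that are not analysed here. Both RNA libraries, labelled WT_wTbrg4 replicates 1 and 2, were made from mammary glands of Wap-Tbrg4 heterozygous C57BL/6 mice on day 10 of lactation (L10), with a wt allele and an allele in which a CRISPR-Cas9 deletion fused the *Wap* SE and promoter to *Tbrg4*. No library of another genotype was used, so no value below is a difference between genotypes. The *Wap-Tbrg4* allele acts in mammary tissue, and whole tissue was used, so each value is an average over all cell types of the gland. Of the marker genes for secretory luminal cells, all 6 averaged an exon FPKM of 1 or more, with *Elf5*, a transcription factor of milk-producing cells, at 185.8 and 204.8. Of the 4 myoepithelial markers, *Krt5*, *Krt14* and *Oxtr* were above 1, whereas *Acta2* was listed at 0 in exons and introns of both libraries. Whether the values of *Acta2* come from absent RNA or from the counting of reads was not tested. The files give FPKM to 1 decimal without counts of reads, so the depth is unknown, and a value of 0.1 is the smallest step that the files can show.

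Glycolysis splits glucose into pyruvate in the cytosol and yields ATP and NADH. The upper steps (*Gpi1*, *Pfkl*, *Aldoa* and *Tpi1*) turn a hexose phosphate into triose phosphates, the lower steps (*Gapdh*, *Pgk1*, *Pgam1*, *Eno1* and *Pkm*) turn these into pyruvate, and *Ldha* reduces pyruvate to lactate. The lactating mammary gland takes up large amounts of glucose, much of which becomes lactose, and part passes through glycolysis to supply energy, glycerol phosphate and carbon for fatty acids. *Gapdh* is also the housekeeping gene to which the study normalized its qRT-PCR.

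Copies of the coding sequences were located first. In the GRCm38.p6 reference (mm10), the longest RefSeq coding sequence of *Gapdh* aligned to 52 other places at an identity of at least 95% over at least 50% of its length. These places lie on 20 chromosomes, 51 of the 52 have no intron, and 50 overlap a processed pseudogene of the GENCODE annotation. Their median identity was 98.73%, the lowest was 95.12%, 24 reached 99%, and 3 matched without any difference over 1020 bp. *Pgk1*, *Pgam1*, *Eno1* and *Ldha* each had 2 such copies. Both copies of *Pgk1* matched its whole coding sequence of 1254 bp. A copy of *Pgam1* matched all 765 bp, whereas the best copy of *Eno1* reached 97.63% with a longest identical stretch of 487 bp, and that of *Ldha* reached 96.0% with a longest identical stretch of 113 bp. *Gpi1*, *Pfkl*, *Aldoa*, *Tpi1* and *Pkm* had no copy by this definition. At an identity of at least 90%, *Ldha* had 8 copies in place of 2, *Gapdh* 55 in place of 52 and *Pgam1* 3 in place of 2. *Aldoa* (4), *Pkm* (2) and *Tpi1* (1) then had copies as well, *Eno1* and *Pgk1* kept 2 each, and *Gpi1* and *Pfkl* still had none. When whole spliced transcripts were aligned, untranslated ends included, *Gapdh* had 44 copies, *Eno1* and *Pgam1* 3 each, *Pgk1* 2, *Tpi1* 1 and *Ldha* none.

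**Figure D1:**
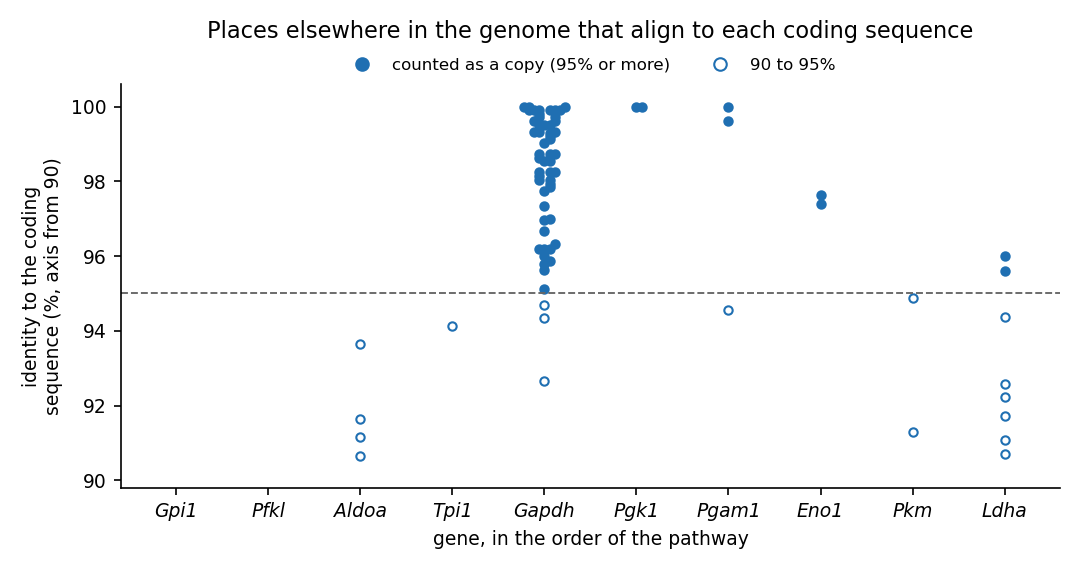
Identity (%) of every place elsewhere in the genome that aligned to the coding sequence of each gene at 90% or more over at least 50% of its length, with genes in pathway order on the horizontal axis. Filled points are the places counted as copies at 95% or more (52 for *Gapdh* and 2 each for *Pgk1*, *Pgam1*, *Eno1* and *Ldha*), and open points lie between 90 and 95%.

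The sequences of 5 genes show what an identical or a diverged copy looks like over the length of a short read. Each pair gives the 60 bases at the center of the longest coding exon of the gene and the matching 60 bases of its closest copy, read from the reference on the strand of the mRNA. Capitals mark bases of the copy that differ from the gene.
*Gapdh*, chr6:125163258-125163317, minus strand: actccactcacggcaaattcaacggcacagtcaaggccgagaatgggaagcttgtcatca
Copy Gm12671, chr4:91852468-91852527, minus strand: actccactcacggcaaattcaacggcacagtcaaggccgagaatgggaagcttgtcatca
*Pgam1*, chr19:41915712-41915771, plus strand: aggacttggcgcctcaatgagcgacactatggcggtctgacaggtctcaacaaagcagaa
Copy Pgam1-ps2, chr7:27470230-27470289, minus strand: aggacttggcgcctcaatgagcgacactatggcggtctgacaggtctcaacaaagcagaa
*Eno1*, chr4:150245196-150245255, plus strand: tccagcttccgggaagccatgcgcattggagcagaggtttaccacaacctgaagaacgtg
Copy Gm4735, chr2:80837666-80837725, plus strand: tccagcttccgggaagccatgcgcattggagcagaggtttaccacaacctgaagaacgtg
*Ldha*, chr7:46850235-46850294, plus strand: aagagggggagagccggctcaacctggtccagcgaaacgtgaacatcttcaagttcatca
Copy Gm5452, chr13:83832642-83832701, plus strand: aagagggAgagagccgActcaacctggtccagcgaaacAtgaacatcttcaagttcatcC
*Aldoa*, chr7:126797413-126797472, minus strand: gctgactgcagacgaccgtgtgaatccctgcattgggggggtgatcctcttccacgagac
Aldoart1 (93.65% identity, under the limit for a copy), chr4:72852157-72852216, minus strand: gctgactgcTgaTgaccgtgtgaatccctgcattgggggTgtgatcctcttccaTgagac
In the windows of *Gapdh*, *Pgam1* and *Eno1*, gene and copy had 0 differences, and in those of *Ldha* and *Aldoa* they differed at 4 of 60 bases.

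A finer measure was the share of 50-base words of the longest spliced transcript that occur without mismatch outside the gene. It was 85.5% for *Gapdh*, 93.0% for *Pgk1*, 91.9% for *Pgam1* and 75.5% for *Eno1*. The other genes fell into a lower range, with 28.8% for *Ldha*, 25.4% for *Tpi1*, 25.3% for *Pkm*, 24.6% for *Gpi1*, 14.6% for *Aldoa* and 0.248% for *Pfkl*. With words of 100 bases, *Gapdh*, *Pgk1*, *Pgam1* and *Eno1* kept 84.9%, 89.9%, 87.0% and 60.7%, while the highest of the others was *Tpi1* with 8.39%. In introns, the share of 50-base words found elsewhere was at most 4.33% (*Ldha*), so that the 10 genes differed in their exons and hardly in their introns. *Gapdh*, *Pgk1*, *Pgam1* and *Eno1* catalyze consecutive steps of the pathway.

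The exon FPKM of the 10 genes spanned 623-fold between the highest and the lowest mean, and the intron FPKM spanned 5.62-fold. The span of exon values was 1461-fold in replicate 1 and 344-fold in replicate 2, since the lowest gene, *Gapdh*, was at 0.1 and 0.3, within a few of the smallest steps of the files. *Ldha*, *Pkm*, *Aldoa*, *Pfkl* and *Tpi1* were at or above an exon FPKM of 40 in both libraries, *Gpi1* lay between, and *Pgam1*, *Pgk1*, *Eno1* and *Gapdh* were at or below 3 in both. The 4 genes of the low group are those with more than 50% of their 50-base words elsewhere. Whether exon reads shared with other places were counted for the low group was not tested, so its values are uncertain as levels. In bulk tissue, fewer cells that express a gene and less RNA per cell cannot be told apart either.

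In the upper steps, the exon FPKM of *Gpi1*, which interconverts glucose and fructose phosphates, was 10.0 in replicate 1 and 8.1 in replicate 2, with intron FPKM of 0.9 and 0.7. *Pfkl*, the liver-type subunit of the committing kinase of glycolysis, had exon FPKM of 86.0 and 40.8 and intron FPKM of 1.5 and 1.3. *Aldoa*, which cleaves fructose bisphosphate, had exon FPKM of 84.1 and 48.7 and intron FPKM of 0.7 and 1.2. For these genes the exon value exceeded the intron value in each library, 11.1-fold and 11.6-fold for *Gpi1* and at least 31.4-fold for *Pfkl* and *Aldoa*. *Tpi1*, which interconverts the triose phosphates, had exon FPKM of 66.3 and 40.8 and intron FPKM of 0.8 and 0.4.

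In the next 4 steps the exon values were low. *Gapdh*, which oxidizes glyceraldehyde phosphate and forms NADH, had exon FPKM of 0.1 in replicate 1 and 0.3 in replicate 2, below its intron FPKM of 0.7 and 0.9. *Pgk1*, the first ATP-forming enzyme of the pathway, had exon FPKM of 1.3 and 1.5 and intron FPKM of 0.3 and 0.5. The mutase gene *Pgam1* had exon FPKM of 1.1 and 3.0 and intron FPKM of 1.5 and 1.3. Exons were thus below introns in both libraries for *Gapdh*, above them in both for *Pgk1*, and below in replicate 1 but above in replicate 2 for *Pgam1*. The enolase gene *Eno1* had exon FPKM of 1.1 and 0.8 and intron FPKM of 1.4 and 1.2, again below the introns in both libraries.

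At the end of the pathway the exon values were high. *Pkm*, whose product forms pyruvate and ATP, had exon FPKM of 112.6 and 44.4 and intron FPKM of 1.9 and 2.6. *Ldha* had exon FPKM of 146.1 and 103.1 and intron FPKM of 1.3 and 1.8. By mean exon FPKM (SD, n = 2 libraries), the order was *Ldha* with 125 ± 30.4, *Pkm* with 78.5 ± 48.2, *Aldoa* with 66.4 ± 25.0, *Pfkl* with 63.4 ± 32.0, *Tpi1* with 53.5 ± 18, *Gpi1* with 9.05 ± 1.34, *Pgam1* with 2.05 ± 1.34, *Pgk1* with 1.4 ± 0.141, *Eno1* with 0.95 ± 0.212 and *Gapdh* with 0.20 ± 0.141. The values of neighbors in this order overlapped between the libraries from *Ldha* through *Tpi1* and for *Pgam1* and *Pgk1*, and did not overlap for the other neighbors. Among all 20515 genes, *Ldha* ranked 166 and *Gapdh* ranked 12157. The intron FPKM of *Gapdh*, 0.80 ± 0.141 (SD, n = 2), equaled that of *Gpi1* and overlapped that of *Tpi1* (0.60 ± 0.283), a gene of the high group by exons.

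**Figure D2:**
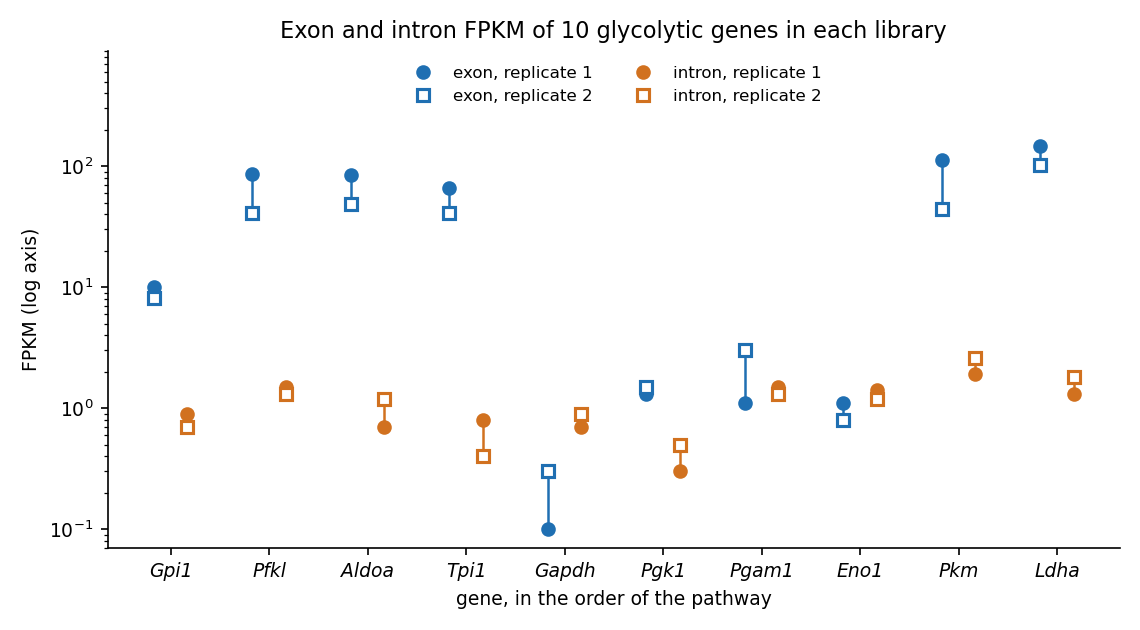
Exon (blue) and intron (orange) FPKM of the 10 genes in pathway order on a log axis, with filled circles for replicate 1, open squares for replicate 2 and a line joining the libraries. Intron values stay between 0.3 and 2.6 FPKM in all 10 genes, whereas exon values run from 0.1 (*Gapdh*) to 146.1 (*Ldha*) and are at or below 3.0 from *Gapdh* to *Eno1*.

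The difference between log2(exon FPKM + 0.1) and log2(intron FPKM + 0.1) of each library was tested with limma over the 4220 genes whose intron FPKM averaged 0.5 or more. Of the 10 genes, 9 passed this filter, and *Pgk1*, with a mean intron FPKM of 0.4, was not tested. Exons were called higher than introns in 6 of the 9, compared with 95.7% of all tested genes, and lower in 1 of the 9, *Gapdh*, compared with 1.02% (43 genes) of all tested genes. As the filter reads introns alone, it admits genes with low exons but not genes with low introns, and so favors calls of exons below introns, among them that of *Gapdh* (mean exon FPKM 0.20, mean intron FPKM 0.80). When a mean exon or intron FPKM of at least 0.5 admitted a gene, a filter chosen after seeing the data, 0.306% of 11107 genes (34 genes) were called lower. *Gapdh* was among them but entered this set, too, through its introns alone. Like the filter before it, a further filter chosen after seeing the data treated both sides alike, but it admits *Gapdh* by its exons as well. It took the 14447 genes with any exon or intron FPKM above 0, of which 79.0% were called higher and 0.45% (65 genes) lower. The log2 ratio of *Gapdh* was -2.00 and -1.32 in the 2 libraries, a mean of -1.66 (SE 0.28, adjusted p = 0.00352 by limma with Benjamini-Hochberg adjustment). With a pseudocount of 1 in place of 0.1 its mean was -0.59. Its p-value does not account for the selection by introns. Under the filter on any value above 0, *Gapdh* was called lower with a limma adjusted p of 0.0371, the highest of its 8 alternatives, in which it ranged from 9.1e-04. *Eno1* had log2 ratios of -0.32 and -0.53 (mean -0.43, SE 0.24, limma adjusted p = 0.145), and *Pgam1* had -0.42 and 1.15 (mean 0.37, SE 0.44, limma adjusted p = 0.454), so neither was called in either direction. The 6 called higher ranged from a mean of 3.35 for *Gpi1* (SE 0.23, limma adjusted p = 1.8e-04) to 6.28 for *Tpi1* (SE 0.24, limma adjusted p = 1.4e-04). On this scale the pseudocount of 0.1 pulls the ratio of low genes toward 0, and it is as large as the exon value of *Gapdh* in replicate 1. A test against 0 also takes exon and intron FPKM to be scaled to the same total, which the sources used here do not state. The labels do not say that the replicates are separate animals, although the study's methods refer to mice. The p-values measure no spread beyond these libraries. With 2 libraries, limma moderates the spread of each gene toward that of all tested genes. SEs and p-values of a gene thus rest in part on the other genes. *Gpi1*, for example, had log2 ratios of 3.34 and 3.36 and yet an SE of 0.23.

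Since exons exceed introns in nearly every gene, each ratio was also tested against the median gene of its library, which had a log2 ratio of 3.57 in replicate 1 and 3.52 in replicate 2. Of the 9 genes, 4 were called above the median gene, compared with 25.8% of all tested genes, and 3 below it, compared with 25.7%. The selection by introns holds for these calls as well. Below it were *Gapdh* by -5.21 (SE 0.29, limma adjusted p = 0.00122; -3.25 with a pseudocount of 1), *Eno1* by -3.97 (SE 0.25, limma adjusted p = 0.0013) and *Pgam1* by -3.18 (SE 0.43, limma adjusted p = 0.00495), each below the median in both libraries. Under the filter on any value above 0, the differences were -4.58, -3.34 and -2.55. All 3 genes were called below the median gene under that filter and in every other alternative that tested them (limma adjusted p of at most 0.00314, 0.00253 and 0.00958). Above it were *Tpi1* by 2.73 (SE 0.25, limma adjusted p = 0.00212), *Ldha* by 2.69 (SE 0.32, limma adjusted p = 0.00347), *Aldoa* by 2.43 (SE 0.40, limma adjusted p = 0.00836) and *Pfkl* by 1.76 (SE 0.31, limma adjusted p = 0.00947). *Pkm*, at 1.38 (SE 0.46), missed the threshold with a limma adjusted p of 0.0553 but passed it in 7 of 9 alternatives. Under the filter on any value above 0, *Pkm* lay at 2.01 (limma adjusted p = 0.00352). *Gpi1* lay at -0.20 (SE 0.24, limma adjusted p = 0.522). The untested *Pgk1* had log2 ratios of 1.81 and 1.42, a mean of -1.93 against the median gene, and in the 3 alternatives that tested it, it was called below the median gene by -1.30 to -1.78 (limma adjusted p from 0.00563 to 0.0104). In the same 3 its exons were called higher than its introns (mean 1.61, limma adjusted p from 0.00769 to 0.0212). The median log2 ratio over the 9 tested members was 4.93, and that of all tested genes was 3.53.

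The copies were then set beside these ratios. *Gapdh*, *Eno1* and *Pgam1*, the 3 called below the median gene, and *Pgk1* were the 4 with the largest shares of 50-base words elsewhere, and the 6 others had at most 28.8%. *Ldha* had as many copies at 95% identity as *Eno1*, *Pgk1* and *Pgam1*, more of them at 90% and none by whole transcripts. Its copies at 95% shared no stretch longer than 113 bp with it, and its ratio was among the highest. Within the low group, *Gapdh*, with 52 copies, had the lowest mean ratio, and the others, with 2 copies each, had -0.43 (*Eno1*), 0.37 (*Pgam1*) and 1.61 (*Pgk1*). Across the 10 genes, the Spearman correlation of the share of 50-base words with the mean log2 ratio was -0.58, where the points come from the same 2 libraries. Across 4211 tested genes, of which 2573 share no word, it was -0.03. Whether reads of these exons were assigned to copies, discarded or counted elsewhere was not tested, as the handling of reads with several matches is not given in the sources used here. The exon values of *Gapdh*, *Pgk1*, *Pgam1* and *Eno1* are therefore uncertain as levels of these genes.

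**Figure D3:**
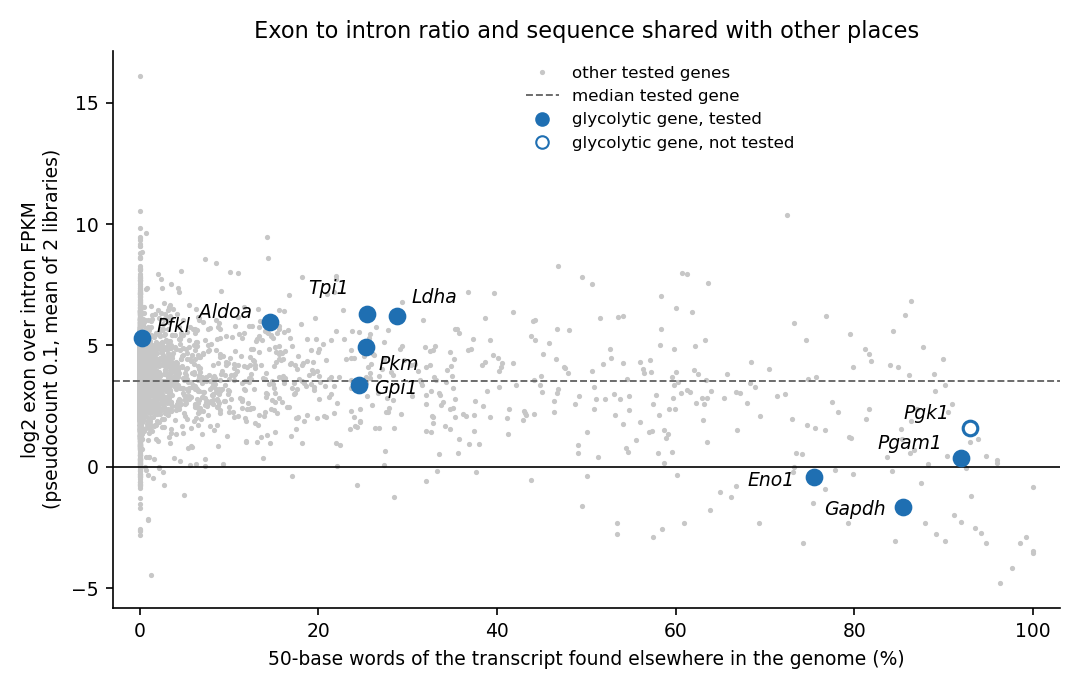
Mean log2 ratio of exon to intron FPKM over the 2 libraries (pseudocount 0.1) against the percentage of 50-base words of the transcript found elsewhere in the genome, for tested genes (grey) and the 10 glycolytic genes (blue, open for *Pgk1*, which was not tested). The dashed line is the median tested gene at 3.53, and *Gapdh*, *Eno1*, *Pgam1* and *Pgk1* lie below it to the right, with shares from 75.5 to 93.0%.

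The same measures over all tested genes give the level to read these values against. The 2573 tested genes with no 50-base word elsewhere had a median log2 ratio of 3.55, and 0.505% of them had exons below introns in both libraries. The median was 3.55 in 1074 genes with up to 10% of words elsewhere, 3.69 in 384 genes with up to 50%, 2.81 in 125 genes with up to 80% and 0.43 in 55 genes above 80%. In the last 2 sets, 11.2% and 36.4% of genes had exons below introns in both libraries, compared with 1.37% of all tested genes (58 of 4220). The spread in the set above 80% was wide, from -3.10 at the 10th percentile to 4.56 at the 90th percentile, so a large share elsewhere did not always go with a low ratio. By copies of the coding sequence, the median was 3.59 in the 3697 tested genes without a copy and 3.16 in the 413 with at least 1, and 9 (0.243%) and 36 (8.72%) of these had exons below introns in both libraries. The other 110 tested genes, for which no coding sequence was available and copies were not counted, had a median of 0.87, and 13 (11.8%) of them had exons below introns in both. *Gapdh* and *Pgam1* belong to the set above 80% and *Eno1* to the set above 50%. Every gene in these sets was admitted by its introns alone, which favors exons below introns, and no share was taken under another filter. These sets were compared by their medians only, with no test.

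**Figure D4:**
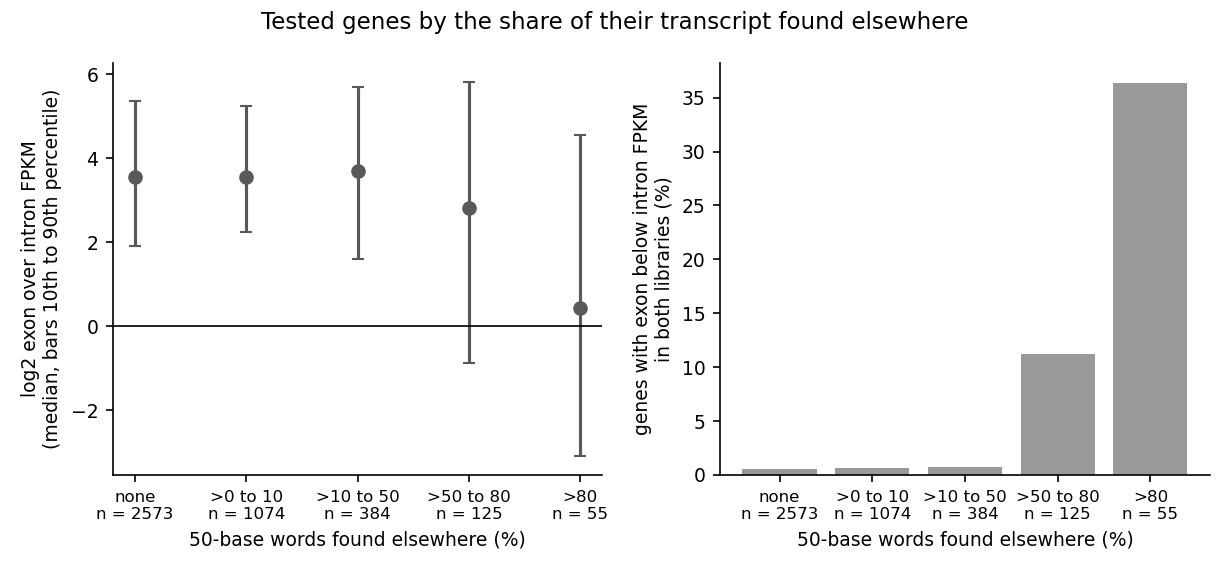
Tested genes grouped by the percentage of 50-base words of the transcript found elsewhere, with the median log2 ratio of exon to intron FPKM and bars from the 10th to the 90th percentile (left) and the percentage of genes with exons below introns in both libraries (right). The median falls from 3.55 in genes with no such word to 0.43 in the 55 genes above 80%, where 36.4% have exons below introns. All genes shown were admitted by a mean intron FPKM of 0.5 or more, whatever their exons.

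Of the 52 *Gapdh* copies, 2 overlap a pseudogene that the files list under its own name. Further copies overlap other listed genes, whose values were not read as values of the copies. Gm12070 on chromosome 11, 99.8% identical, had exon FPKM of 0.1 in replicate 1 and was listed at 0 in replicate 2. 4930471M09Rik on chromosome 6, which overlaps a copy of 98.14% identity, was listed at 0 in replicate 1 and had 0.2 in replicate 2. How much of the value of 4930471M09Rik comes from the copy was not tested. These values do not show where reads shared by *Gapdh* and its copies were counted.

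The genes most like each member were taken as those with the smallest Euclidean distance over the 4 log2 values of exons and introns. The nearest to *Gapdh* was the ribosomal protein gene *Rpl28* (distance 0.85), with exon FPKM of 0.2 and 0.4, 4 copies and 100% of its 50-base words elsewhere. *Rps13*, another ribosomal protein gene, followed (distance 0.91, 5 copies and 87.9%), and then *Tom1* (distance 1.07), which had no copy at 95% identity but 93.5% of words elsewhere. For *Eno1* the nearest was *Cdk2ap1* (distance 0.37) with 92.5% of words elsewhere, but the next, *Car15* (distance 0.38), had none. The nearest genes of *Ldha* were *Epcam*, *Pfn1* and *Ppib*, at distances of 0.32 to 0.48, of which *Epcam* and *Pfn1* shared no word with other places. *Pgk1* was nearest to *Ankra2*, *Prmt6* and *Abraxas1* (distances of 0.20 to 0.24), which had no copy. Around *Tpi1*, the ribosomal protein gene *Rpl13* (distance 0.43) had 7 copies and 85.7% of words elsewhere, and yet exon FPKM of 81.9 and 41.8. *Pgam1* was nearest to Gm4285 and *Snhg7*, which had no copy count and 3.8% and 0% of words elsewhere. Next to it came *Timm23* (distance 0.79), with 4 copies and 96% of words elsewhere. A similar set of 4 values thus occurred in genes with and without copies.

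Other genes of the pathway were read from lists of isozymes, regulators, transporters and pyruvate-using enzymes. Of 21 other isozymes, 18 were listed, 10 averaged an exon FPKM of 1 or more, and 1 (*Ldhb*) had a copy. *Aldoc*, the aldolase best known from brain, had the highest exon FPKM of these, 240.9 and 183.9, with 0% of words elsewhere. These values lay above those of *Aldoa* in both libraries, by 2.86-fold and 3.78-fold. Among hexokinases, which start the pathway, *Hk2* had exon FPKM of 16.5 and 11.4 and *Hk1* had 7.0 and 4.5, while *Hkdc1* was listed at 0 in both. *Pfkl* exceeded the muscle-type *Pfkm* (6.8 and 4.1) 12.6-fold and 9.95-fold, and *Ldha* exceeded *Ldhb* (11.4 and 9.3) 12.8-fold and 11.1-fold. At the steps of the low group, *Pgk2* and *Eno1b*, which overlaps a copy of *Eno1* at 97.4% identity, were not listed and have no value. Of the listed genes, *Gapdhs* was listed at 0, *Pgam2* had 0.7 and was listed at 0 in replicate 2, *Eno3* had 1.2 and 1.8, *Eno2* had 0.1 in both libraries, and *Bpgm*, a related mutase, had 4.6 and 2.8. Listed exon values at the steps from GAPDH to enolase thus stayed at or below 4.6 FPKM.

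**Figure D5:**
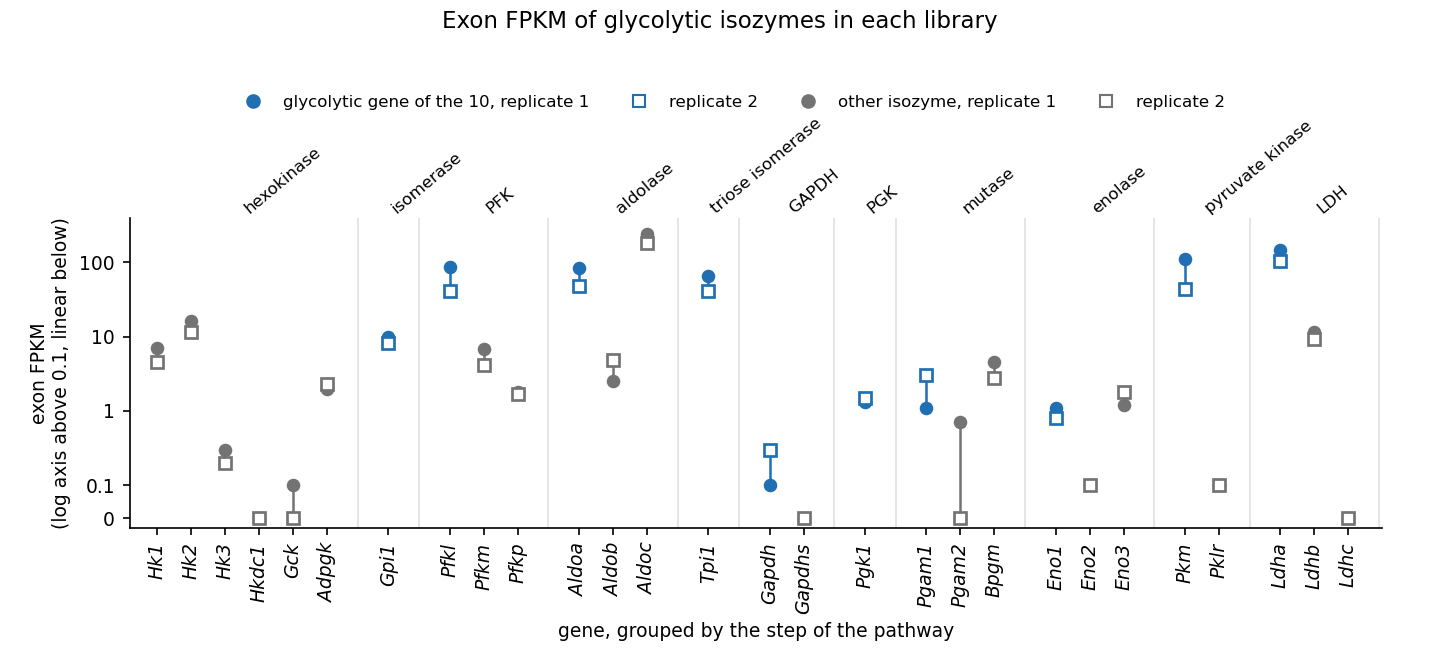
Exon FPKM of the listed isozymes at each step of glycolysis (log axis above 0.1, linear below), with circles for replicate 1 and squares for replicate 2, in blue for the 10 genes and in grey for other isozymes (PFK, phosphofructokinase; PGK, phosphoglycerate kinase; LDH, lactate dehydrogenase). No gene of the steps from GAPDH to enolase exceeds the 4.6 FPKM of *Bpgm*, while *Aldoc* reaches 240.9.

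Only 2 of the other isozymes, *Hk2* and *Aldoc*, passed the intron filter. Exons were called higher than introns in both, and *Aldoc* was called above the median gene (2.41, SE 0.25, limma adjusted p = 0.0027). All 3 tested regulators (*Pfkfb2*, *Hif1a* and *Myc*) and all 3 tested transporters had exons called above introns. The glucose transporter *Slc2a1* had exon FPKM of 79.6 and 58.2, the lactate transporter *Slc16a1* had 55.3 and 62.1, and its partner *Bsg* had 73.2 and 66.8. Of 13 genes of pyruvate entry into mitochondria, 10 were tested, of which 9 had exons called above introns, 5 were called above the median gene and 1, *Mpc1*, below it. Over all tested genes these shares were 95.7%, 25.8% and 25.7%. *Mpc1*, a subunit of the pyruvate carrier with 65.0% of its words elsewhere, had exon FPKM of 6.5 and 1.5 and intron FPKM of 7.9 and 5.4 (-4.57 against the median gene, SE 0.41, limma adjusted p = 0.00208). *Mpc2*, its partner, had exon FPKM of 160.9 and 197.7 with 2.63% of words elsewhere.

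Genes often used to normalize qRT-PCR were taken as a further list, as *Gapdh* is among them in the study. Of 12 such genes besides *Gapdh*, all were listed and 7 were tested, of which 6 had exons called above introns and 1, *Ppia*, below, compared with 95.7% and 1.02% of all tested genes. *Ppia*, a prolyl isomerase gene with 17 copies and 98.6% of words elsewhere, had exon FPKM of 0.4 in replicate 1 and was listed at 0 in replicate 2, with intron FPKM of 1.5 and 2.4. Its call depends on the filter, which it passed through its introns, the side on which it is higher. Its limma adjusted p of 0.0116 became 0.0664 with no filter beyond an intron FPKM above 0, 0.0421 with a mean exon or intron FPKM of at least 0.5, 0.121 with any exon or intron FPKM above 0 and 0.00915 with introns of at least 1. *Actb* had exon FPKM of 502.1 and 404.8 with 14.4% of words elsewhere, and *Sdha* had 57.9 and 54.0 with none. *Rplp0*, with 3 copies and 50.6% of words elsewhere, had 236.0 and 152.4. Exon FPKM in this list therefore ran from the level of *Gapdh* to rank 47 among all genes (*Actb*).

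Between the libraries, the exon FPKM of 7 of the 10 genes was lower in replicate 2 and that of 3 (*Gapdh*, *Pgk1* and *Pgam1*) was higher as deposited, compared with 53.2% lower and 40.3% higher of the 14325 genes with an exon value above 0. When each library was scaled to the same summed exon FPKM, *Pgk1* was lower as well (-0.79), while *Gapdh* (0.30) and *Pgam1* (0.36) were still higher. That scaling moved the median log2 ratio of replicate 2 to replicate 1 over the 9845 genes that averaged an exon FPKM of 1 or more from -0.10 to -1.13, and values below are as deposited. The log2 ratio was -1.34 for *Pkm*, -1.07 for *Pfkl*, -0.79 for *Aldoa*, -0.70 for *Tpi1*, -0.50 for *Ldha* and -0.30 for *Gpi1*, all below the median gene. Of the 4 genes with many words elsewhere, *Eno1* (-0.42) lay below it too, whereas *Pgk1* had 0.19, *Pgam1* had 1.37, and *Gapdh*, at 0.1 and 0.3 FPKM, had 1.00, or 0.24 with a pseudocount of 1. The summed exon FPKM of the 10 genes was 509 in replicate 1 and 292 in replicate 2, which was 0.0596% and 0.0163% of all exon FPKM in these libraries. That total was 852961 and 1788119, of which the milk protein genes *Csn2*, *Wap* and *Lalba* made up 289943 and 724976, with *Csn2* at 108555 and 481937. By introns, 5 of the 10 genes were lower and 5 were higher in replicate 2. Introns moved the same way as exons in *Gpi1*, *Pfkl*, *Tpi1*, *Eno1*, *Gapdh* and *Pgk1*. They moved the opposite way in *Pkm*, *Aldoa*, *Ldha* and *Pgam1*. No share over all genes was taken for introns.

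Over the same genes, the log2 ratio between the libraries ran with the GC content of exons. When they were divided by GC content into 10 groups, the median was 0.46 where GC content was lowest and -0.93 where it was highest. Compared with the 983 genes of the same group, *Gpi1* (-0.30 against a median of -0.28) had 47.4% of its group below it, *Aldoa* (-0.79 against -0.62) had 35.1% and *Ldha* (-0.50 against -0.28) had 31.6%. *Tpi1* (-0.70 against -0.28) and *Pfkl* (-1.07 against -0.62) each had 17.6% and *Pkm* 1.83%, so that these 6 genes lay below the median of their groups. *Pgk1* (0.19 against 0.00) had 70.2%, and *Pgam1* stood higher, with 99.8% of its group below it. The log2 ratio of *Pgam1*, 1.37, rests on exon FPKM of 1.1 and 3.0 and was 0.93 with a pseudocount of 1. The share of its group below it was not taken with that pseudocount. *Gapdh* and *Eno1*, which averaged an exon FPKM under 1, were not in these groups and were not compared. Markers of skeletal muscle, a tissue rich in several of these enzymes, were listed for 7 of 7 genes, none at 0, with 6 of 7 lower in replicate 2, a sum of 31.9 and 13.1 FPKM and *Acta1* as the highest (8.4 and 3.7). Adipocyte markers summed to 628 and 715 FPKM, with all 4 listed, of which *Fabp4* (501.7 and 564.0) made up most and *Plin1* was lower in replicate 2 (7.8 and 2.6). In the other marker lists, genes went both ways. Lower in replicate 2 were 3 of 6 secretory luminal markers, 2 of 4 myoepithelial, 3 of 4 macrophage, 2 of 3 endothelial, 2 of 3 fibroblast, 1 of 3 lymphocyte and 1 of 3 listed erythrocyte markers, and log2 ratios ran from -1.71 (*Krt14*) to 2.15 (*Csn2*) among the luminal and myoepithelial ones. The part of GC content and of these cell types in the differences between the libraries was not tested.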

How the data were processed

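Total RNA-seq of L10 mammary tissue from Wap-Tbrg4 heterozygous mice was used, in 2 libraries. The labels do not say that they are from separate animals. The authors mapped reads to mm10 with STAR, counted them with HTSeq on collapsed exons of UCSC known genes and on the introns between, and deposited exon and intron FPKM values generated with DESeq2. The STAR version, read length and handling of reads with several matches are not given in the sources used here. Nor do they state whether exon and intron FPKM were scaled to the same total. Of 20550 rows, 35 without a usable symbol were left out. Members and lists were chosen with earlier results of these data known. Genes named are the members, genes of the lists, and the 3 genes nearest to each member. Which of them serve as examples was decided after their values were seen.

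The log2 difference of exon and intron FPKM (pseudocount 0.1) was taken within each library, so that the library is the pair. It was tested with limma 3.58.1 in R 4.3.3 (lmFit and eBayes, Benjamini-Hochberg, threshold 0.05). Coding sequences and transcripts came from RefSeq on GRCm38.p6 (20263 listed genes matched), pseudogenes from GENCODE M21. Copies were found with minimap2 2.31 on 21 chromosomes. Transcript words of 50 bases were taken at every 5th position, and up to 300 per gene from introns. Other steps used Python 3.11.15, pandas 2.3.3, numpy 2.4.6 and scipy 1.17.1, and figures matplotlib 3.10.9.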

Additional observations from a re-analysis of the deposited data

How the results depend on the processing

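With 1 library left out no residual degrees of freedom remain for limma, so those settings gave values without a test. The log2 exon to intron ratio of *Pgam1*, 0.37 over both libraries, ranged from -0.42 to 1.15 and changed sign without replicate 2, and the other 9 genes kept their sign. Changes of the pseudocount, the scaling, the eBayes trend or the pairing left each count of called genes within 1.5 times, but the ratio of *Gapdh* moved from -1.66 to -0.59, and from -5.21 to -3.25 against the median gene, with a pseudocount of 1. With no replicate block (exon and intron values as unpaired groups), 3985 genes were called higher and 33 lower, against 4037 and 43 with the pairing by library, and no call of a glycolytic gene changed. Counts moved with the filter. With no filter beyond an intron FPKM above 0, 10248 genes had exons called higher than introns and 70 lower, and 2733 and 2807 were called above and below the median gene. With introns averaging an FPKM of 1 or more, 1493 were called higher and 29 lower, and 484 and 469 above and below the median gene. With a mean exon or intron FPKM of at least 0.5, a setting chosen after seeing the data, 10720 were called higher and 34 lower, and 2601 and 2236 above and below the median gene. With any exon or intron FPKM above 0, also chosen after seeing the data, 11418 were called higher and 65 lower, and 3928 and 4235 above and below the median gene. The counts of genes tested were 11506, 1594, 11107 and 14447 under these filters, against 4220, so calls of exons below introns did not follow the number tested. *Gpi1* moved from -0.20 to 0.10 against the median gene with no filter beyond an intron FPKM above 0 and to 0.43 with any exon or intron FPKM above 0, and was not called in any of 8 alternatives (limma adjusted p from 0.318 to 0.908). *Pkm* passed the threshold against the median gene in 7 of 9 alternatives (limma adjusted p from 6.9e-11 to 0.0751). The lowest came with a pseudocount of 1, where the limma adjusted p of *Gapdh* against the median gene was 3.8e-32. Values so small draw on the spread that limma pools over genes, and not on these libraries alone. The calls of *Eno1* and *Pgam1* below the median gene held in all 9 alternatives, and that of *Gapdh* in the 8 that tested it. The call of *Gapdh* with exons below introns held in the same 8 (limma adjusted p from 9.1e-04 to 0.0371). Of these, only the filter on any value above 0 admits *Gapdh* by its exons as well as by its introns. Other genes can still enter that filter by introns alone. *Pgk1* was called below it, and with exons higher than introns, in the 3 alternatives that tested it. Between the libraries, *Pgk1* turned from 0.19 to -0.79 when each library was scaled to a sum of 1000000. At an identity of at least 90%, 8 genes had a copy in place of 5. By the longest transcript 5 had one, with *Tpi1* in place of *Ldha*. The cause was not tested for any of these changes. Words of 100 bases, also chosen after seeing the data, left the same count of 4 genes above 50%. The depth is unknown, so the counting error of low values such as the exon FPKM of *Gapdh* cannot be given.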
